A study of Mus musculus with 3 samples.

Results

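The genes described here are 9 core components of hedgehog signalling: the ligand gene Shh, the receptor and co-receptor genes Ptch1, Smo, Boc and Gas1, the inhibitor gene Hhip, and the transcription factor genes Gli1, Gli2 and Gli3. They were listed by name, out of 21887 protein-coding genes of the RefSeq annotation on the mouse assembly GRCm38 (mm10). The data are binding sites of the forkhead transcription factor FOXF1, mapped by chromatin immunoprecipitation and sequencing (ChIP-seq) in whole lungs of C57BL/6 wild-type embryos at embryonic day 18.5. There were 2 biological replicates, each a pool of 3 lungs, and both were set against a 2% input control that carried no antibody. Whole lung mixes mesenchyme, vessels, epithelium and blood, so a site cannot be traced to one cell type.

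In hedgehog signalling a secreted ligand binds the receptor Patched 1 (Ptch1) and thereby releases Smoothened (Smo) from its inhibition. Smoothened signals through the primary cilium to the Gli factors, which switch target genes on or off, and Ptch1, Hhip and Gli1 are themselves classical targets of the pathway. In the developing lung the epithelium makes Sonic hedgehog and the surrounding mesenchyme responds to it, and Foxf1 is among the genes that depend on this signal. A site of FOXF1 at a hedgehog gene is a position in the genome and no measure of that gene's expression, which was not recorded.

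A summit of one replicate and a summit of the other made a shared site when each was the nearest to the other and they lay at most 100 bp apart. A shared site belonged to a gene if it lay inside it, or lay within 100 kb with an end of that gene as the nearest protein-coding gene end. Of 51013 shared sites, 63 belonged to the hedgehog genes, and none of them also belonged to a different protein-coding gene. The deposited lists held 107388 summits in replicate 1 and 61178 in replicate 2, and their read depth is not stated in those sources. Each summit carries the authors' score, a −log10 significance against the input. The scores of the replicates are given side by side, and percentiles and ranks were taken within each replicate. Where a site is called the highest of its gene or group, it is the one with the highest mean of both scores, and replicate 1, with its larger scores, weighs more in that mean. The design holds one condition in 2 replicates, so the comparisons below are descriptions with no test between conditions.

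The transcription starts of Smo, Hhip and Gas1 each had a summit of both replicates within 100 bp, and the bases just before those starts are shown for that reason. They are 3 of the 6 genes with a start in the promoter table used, and the share of all starts with such summits was not counted. Shh, which has no entry there, had summits 18 bp and 11 bp inside its right end. In each run of 250 bases, written 5′ to 3′ on the gene's own strand and ending at the base before the start, capitals mark the GC box word GGGCGG or its reverse complement CCGCCC. The sequences are RefSeq's on GRCm38. They lie at chr6:29735247-29735496 on the plus strand for Smo, at chr8:80058009-80058258 on the minus strand for Hhip and at chr13:60177536-60177785 on the minus strand for Gas1.
Smo: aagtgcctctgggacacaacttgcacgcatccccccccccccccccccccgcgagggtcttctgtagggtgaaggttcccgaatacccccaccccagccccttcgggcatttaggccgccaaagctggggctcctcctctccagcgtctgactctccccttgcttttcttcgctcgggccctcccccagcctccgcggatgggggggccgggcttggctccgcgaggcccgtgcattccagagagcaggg
Hhip: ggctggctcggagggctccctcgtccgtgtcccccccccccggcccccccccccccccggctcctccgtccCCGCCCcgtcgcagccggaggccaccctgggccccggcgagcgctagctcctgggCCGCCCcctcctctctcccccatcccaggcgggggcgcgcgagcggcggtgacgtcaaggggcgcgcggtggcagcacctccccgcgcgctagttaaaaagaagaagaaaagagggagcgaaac
Gas1: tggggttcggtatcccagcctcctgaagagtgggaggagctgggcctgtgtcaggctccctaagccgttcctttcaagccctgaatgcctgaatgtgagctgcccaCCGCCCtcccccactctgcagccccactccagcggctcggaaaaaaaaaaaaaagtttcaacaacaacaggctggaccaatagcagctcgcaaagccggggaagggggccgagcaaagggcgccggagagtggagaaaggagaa

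At Smo, the signal transducer of the pathway, the summits lay 52 bp and 63 bp downstream of the start in replicates 1 and 2, with scores of 75.9 and 57.3. At Hhip, whose membrane-bound product captures hedgehog ligands, they lay 27 bp and 29 bp downstream, with scores of 23.8 and 26.1. At Gas1, which encodes a co-receptor anchored to the cell surface, they fell on either side of the start. The replicate 1 summit lay 82 bp upstream, within the bases printed above, with a score of 82.5, and the replicate 2 summit lay 32 bp downstream with a score of 51.4. Being 114 bp apart, this Gas1 pair missed the distance for a shared site and is not among the 63.

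Start windows, of 250 bases before and 50 bases from a start, were on record for 6 of the 9 genes, namely Ptch1, Smo, Gli2, Gli3, Hhip and Gas1. Only the Hhip window held a shared site, where 15.7% of all 32851 windows did. The Smo window ends at 29735546, and the shared Smo site, at 29735554, lay just beyond it. The Gas1 window held 1 summit of each replicate, too far apart to be shared. No forkhead word (GTAAACA or ATAAACA, either strand) occurred in any of the 6 windows, and these words occurred in 3.65% and 4.60% of all windows. The word GACCACCCA, a strong Gli binding sequence, was likewise in none of the 6 and in 0.253% of all windows. The GC box word was in 5 of the 6, all but Smo, and in 35.7% of all windows. Among the 5162 windows with a shared site, 67.7% held the GC box word and 4.17% held GTAAACA, against 29.7% and 3.55% of the windows without one. The other forkhead word, ATAAACA, went the opposite way, with 3.86% of windows with a shared site and 4.73% of those without. The 6 windows were rich in G and C, from 62.3% at Gas1 to 76.3% at Ptch1, and the median was 52.7% over all windows and 62.3% over those with a shared site. These words are matches of letters, and the GC box word is itself made of G and C.

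**Figure D1:**
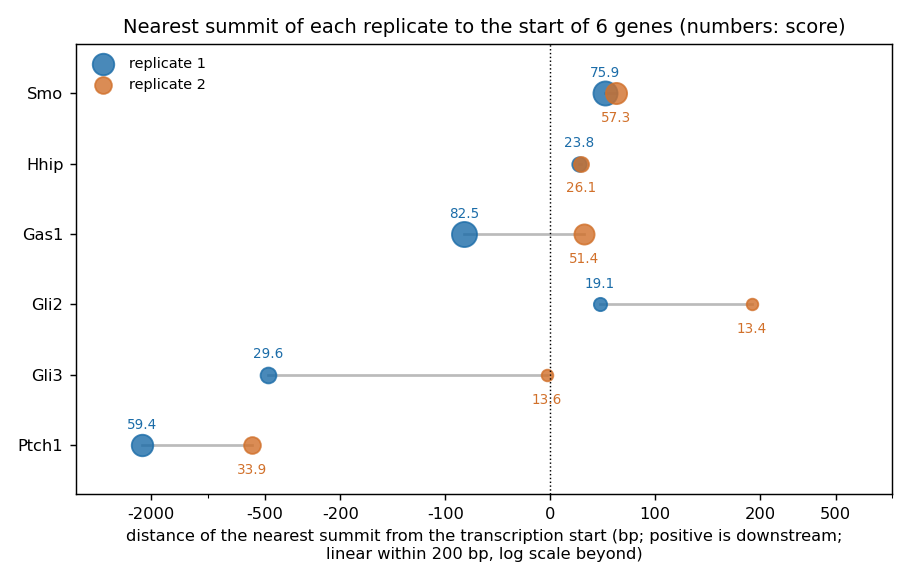
Distance in bp from the transcription start (horizontal axis, positive downstream, linear within 200 bp and logarithmic beyond) of the nearest FOXF1 summit of each replicate for 6 genes; the number beside each point is its score and the point's area grows with it. The summits nearly coincide at Smo and Hhip, straddle the start at Gas1, and lie farther apart at Gli2, Gli3 and Ptch1.

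Sites were spread unevenly over the pathway. At least 1 shared site belonged to 8 of the 9 genes, all but Gli1, where 60.7% of all protein-coding genes had one. A shared site lay within 5 kb of an end of 8 genes, against 54.4% of all protein-coding genes, and inside 7 genes, against 48.1%. For Boc the count within 5 kb rests on a site that belongs to the neighbouring gene Cfap44. The median was 5 sites per gene, beside a median of 1 and a mean of 2.19 over all protein-coding genes. In order, Ptch1 had 21 sites, Boc 13, Gli3 10, Hhip 7, Gli2 5, Gas1 4, Shh 2, Smo 1 and Gli1 0. Ptch1 had more sites than 99.1% of protein-coding genes, Boc more than 97.0% and Gli3 more than 95.1%.

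The order did not follow gene length. Gli3 and Gli2 span 266 kb and 220 kb and had 2.63 and 1.82 sites inside per 100 kb, below the 2.89 of all protein-coding genes pooled. Ptch1 spans 65.1 kb and had 23.0 per 100 kb, Boc 9.48 over 73.8 kb and Hhip 6.51 over 92.2 kb. Shh, a gene of 10.3 kb, reached 19.5 per 100 kb on only 2 sites. Pooled, the 9 genes had 5.46 sites inside per 100 kb, and Ptch1 alone held 15 of their 42 sites inside.

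**Figure D2:**
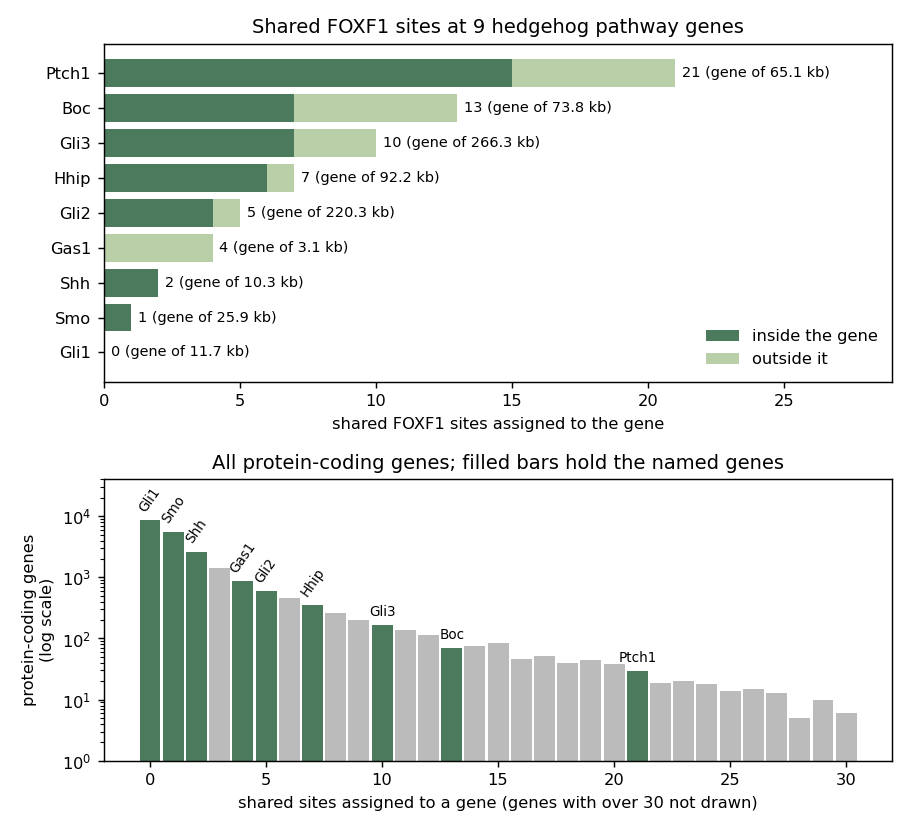
Upper plot: number of shared FOXF1 sites (horizontal axis) of each of the 9 hedgehog genes, divided into sites inside and outside the gene, with gene length beside each bar. Lower plot: number of protein-coding genes (vertical log axis) by their count of shared sites; Ptch1 with 21 and Boc with 13 stand in the sparse right tail, and Gli1, Smo and Shh in the tallest bars.

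The receptor gene Ptch1 (chromosome 13, positions 63508328 to 63573460, minus strand) was the most densely bound. Of its 21 shared sites, 15 lay inside the gene, 5 lay beyond the right, upstream end and 1 beyond the left, downstream end. They spanned 138 kb (138238 bp) with a median gap of 4620 bp. Replicate 1 scores ran from 19.9 to 125.6 with a median of 50.7, and replicate 2 scores from 5.60 to 66.9 with a median of 15.5. In all, 31 replicate 1 summits and 25 replicate 2 summits fell to Ptch1.

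The highest Ptch1 site lay upstream, at position 63642909, 69.4 kb beyond the right end, and scored 125.6 in replicate 1 and 66.9 in replicate 2. With an assignment limit of 50 kb, or with noncoding genes competing for sites, it no longer fell to Ptch1, and the highest site was then the one at 63563446 inside the gene. Just to the left of the upstream site at 63642909, another pair of summits had scores of 55.8 and 22.9 but lay 147 bp apart and was not counted as shared. The next sites by mean score lay inside the gene, at 63563446 with 97.7 and 64.5, which is 2289 bp downstream of the start, and at 63558745 with 114.2 and 46.1, which is 6990 bp downstream. These 3 sites ranked among the 10000 highest summits of both lists, and no other Ptch1 site did. At the RefSeq start itself, position 63565735, replicate 2 had a summit 587 bp upstream with a score of 33.9, while the nearest replicate 1 summit lay 2245 bp upstream with 59.4. The right end of the annotated span lies farther upstream, and there a shared site at 63573527 had scores of 20.7 and 13.6.

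By number of sites inside and outside and by the rank of the highest site in each list, the protein-coding genes most like Ptch1 were Pip4k2a with 20 sites, Plac1 with 22 and Disc1 with 21. Their distances from Ptch1 on these 4 measures were 0.146, 0.160 and 0.256 SD of all genes with a site, over 2 lists. Gene length was not among the measures. The 3 genes span 156, 170 and 216 kb with 14, 16 and 14 sites inside, against 65.1 kb and 15 for Ptch1, so their sites lay less densely.

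The co-receptor gene Boc (chromosome 16, positions 44485045 to 44558870), whose product binds hedgehog ligands at the cell surface and whose strand was not in the tables used, had 7 sites inside and 6 beyond its right end. The sites were grouped. Inside the gene 4 of them, at 44505466, 44507467, 44510168 and 44511800, fell within one stretch, with replicate 1 scores of 40.3 to 50.8 and replicate 2 scores of 7.78 to 21.4. Beyond the right end, 3 more lay together 38.8 to 40.8 kb away, led by 44597650 with 62.2 and 27.3. The highest Boc site, at 44538559 inside the gene, had 102.0 and 37.3, and its paired summits lay 77 bp apart. By mean score, a site at 44617116, 58.2 kb beyond the right end, followed with 79.2 and 37.3, and then one inside the gene at 44547105 with 72.6 and 38.2. In replicate 2 this last site was the highest of Boc. At the right end of Boc a pair of summits with scores of 43.1 and 36.0 lay 209 bp and 68 bp inside the gene, and at 141 bp apart it was not counted as shared.

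Gas1 (chromosome 13, positions 60174405 to 60177535, minus strand) had no shared site inside its 3.13 kb. Its highest shared site was also the one with the highest mean score of all 63. It lay at 60173771, 634 bp beyond the left end, which is the end of transcription, with scores of 147.5 and 60.3. In replicate 2 alone, the Ptch1 sites with 66.9 and 64.5 were higher. The other 3 lay upstream, at 1027 bp and at 85.1 and 90.0 kb from the right end, with replicate 1 scores of 12.7 to 36.6 and replicate 2 scores of 6.13 to 7.78. The pair of summits at its start, described above, lay 114 bp apart and is not counted here.

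Smo (chromosome 6, positions 29735497 to 29761366, plus strand) had the single site at its start and no additional summit in either list. The score of 75.9 exceeded 76.1% of shared sites in replicate 1, and that of 57.3 exceeded 89.5% in replicate 2. Its protein-coding neighbours are close, Tspan33 at 16.9 kb and Ahcyl2 at 7.01 kb.

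Shh (chromosome 5, positions 28456840 to 28467101) had 2 shared sites, both low. One lay inside the gene at 28464479 with scores of 10.2 and 10.2, and the other lay 15 bp inside the right end at 28467086 with 10.2 and 7.64. In replicate 1 both stood at a percentile of 1.75 among shared sites. The lists held 6 and 4 summits for Shh, with no score above 10.8. Of the unpaired ones, 2 from each list formed pairs 133 and 145 bp apart, inside the gene. No shared site outside the gene had a Shh end as its nearest protein-coding end at any distance, although the next gene to the right, Rnf32, is 726 kb away. Under the rule used, sites in the part of that gap nearer to Rnf32 belong to Rnf32 within 100 kb of it and otherwise to no gene. Long-range control elements of Shh that lie there are therefore not covered.

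Hhip (chromosome 8, positions 79965850 to 80058060, minus strand) had 6 sites inside and 1 upstream. The highest were at 79992738 with 82.5 and 25.3, and at 80002743 with 72.6 and 25.3, both deep in the gene. The site at its start was lower in replicate 1 than these, at 23.8, and higher in replicate 2, at 26.1. The shared site with the highest scores near Hhip lay beyond the 100 kb limit. At position 80239990, 182 kb upstream of the right end, a shared site had scores of 207.5 and 100.8 and ranked 636th in the list of replicate 1 and 850th in that of replicate 2. It was 1 of 7 shared sites 119 to 212 kb from Hhip whose nearest protein-coding end was that of Hhip, and the next of them, at 80253753, had 112.7 and 58.3. No value here ties these sites to Hhip other than their position.

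Among the transcription factor genes, Gli3, whose product acts mainly as a repressor, had 7 sites inside and 3 outside (chromosome 13, positions 15463723 to 15730026, plus strand). Its highest site, at 15541103 and 77.4 kb inside the gene from the left end, had scores of 109.5 and 54.8. The other 9 had replicate 1 scores of 18.4 to 55.8 and replicate 2 scores of 6.13 to 17.6. At its start, position 15463723, the nearest summits were 481 bp upstream in replicate 1 with 29.6 and 3 bp upstream in replicate 2 with 13.6, so no site was shared there.

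Gli2, which encodes the main activator, had 4 sites inside and 1 upstream (chromosome 1, positions 118834061 to 119054405, minus strand). The site at 118976931, inside the gene, had scores of 145.0 and 56.3, and the others had at most 51.3 and 18.8. At the Gli2 start a replicate 1 summit 47 bp downstream with 19.1 and a replicate 2 summit 192 bp downstream with 13.4 lay 145 bp apart. The lists were unequal here, with 22 summits in replicate 1 and 6 in replicate 2, and the whole lists held 107388 and 61178. Of the replicate 1 summits at Gli2, 17 had no partner, and their highest score was 27.9. Over all replicate 1 summits on the nuclear chromosomes, 52.5% had no partner, with a median score of 10.2.

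Gli1, a target of the pathway that amplifies it, had no shared site. Replicate 1 had 2 summits inside the gene (chromosome 10, positions 127329882 to 127341579), at 127339371 and 127339989, with scores of 12.2 and 12.7. The nearest replicate 2 summit lay 27.0 kb from the first of them, and was itself low. Replicate 2 had the shorter list, and neither depth is known, so a shared site at Gli1 was not detected and is not shown to be absent.

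**Figure D3:**
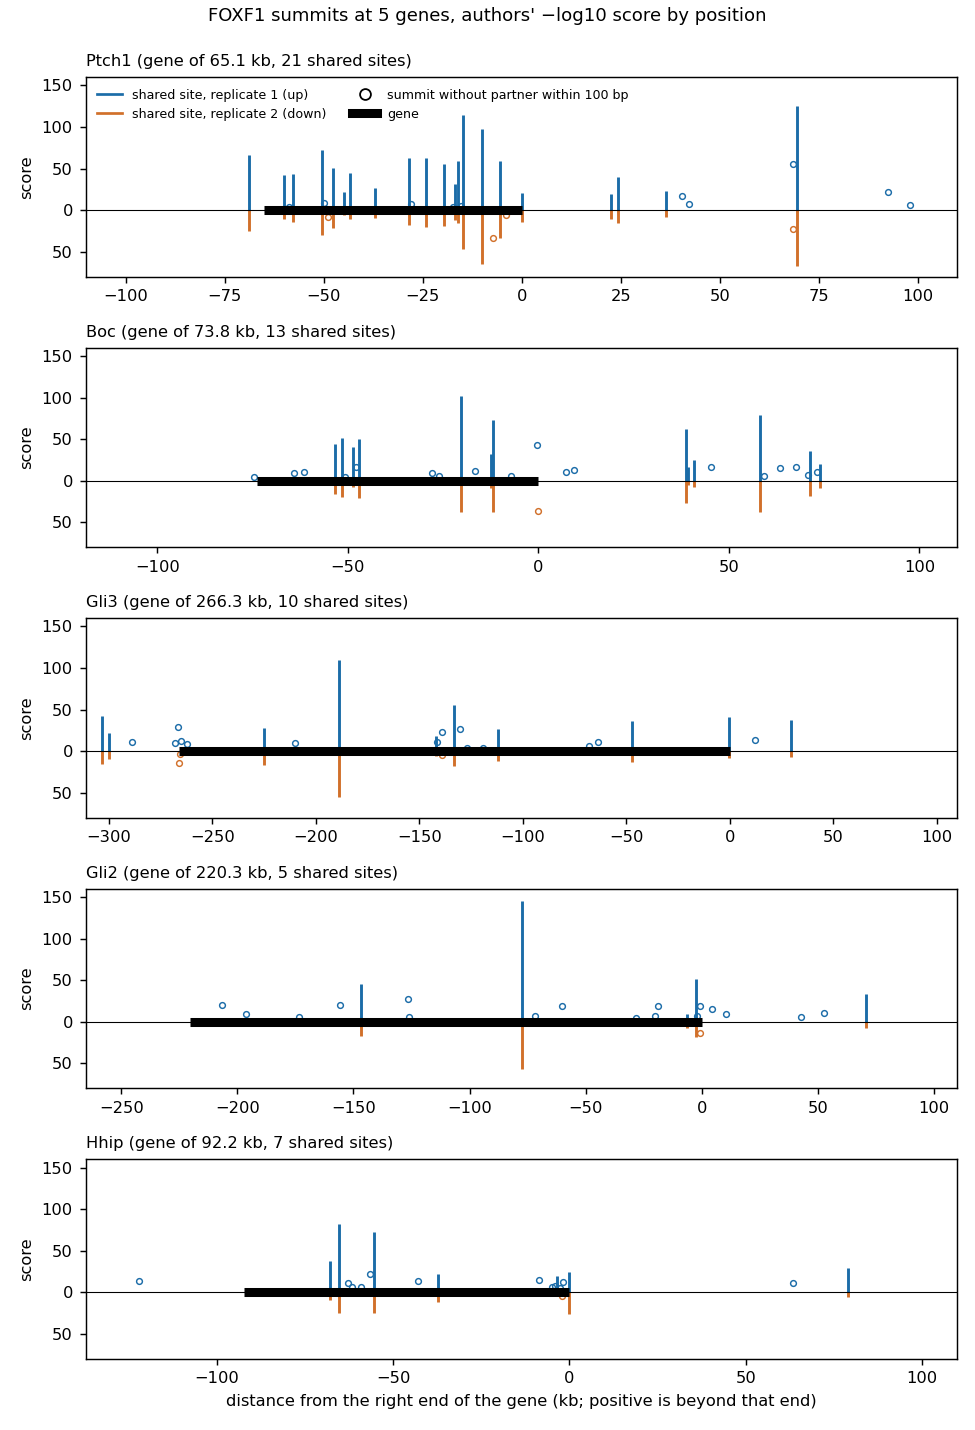
Scores of FOXF1 summits (vertical axis, replicate 1 upward and replicate 2 downward) by distance in kb from the right end of Ptch1, Boc, Gli3, Gli2 and Hhip; lines are shared sites, open circles are summits without a partner within 100 bp, and the black bar is the gene. Ptch1 is lined with sites along its whole length, Boc carries 2 groups of sites, and Gli3 and Gli2 each have 1 site that stands above the rest.

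The sites were of middling rank. Among the 63, the median score was 41.7 in replicate 1 and 14.9 in replicate 2, against 44.1 and 19.1 over all shared sites. Only 6 of the 63 came from the 10000 highest summits of both lists, where 14.8% of all shared sites did. These 6 belonged to Ptch1 (3 sites), Gas1, Gli2 and Gli3 (1 each), so 4 of 9 genes had such a site, against 16.7% of all protein-coding genes. Paired summits of the 63 lay a median of 12 bp apart, and 13 bp over all shared sites. The scores of both replicates ranked the 63 sites in a similar order. Across the 63 sites, which share libraries and loci and are not replicates, Spearman's rho was 0.845, and over all shared sites it was 0.883.

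The replicates differed in how they ranked sites near gene ends. Ranks are given as the percentile of a score among all 51013 shared sites of the same replicate. Of the 63 sites, 6 lay within 1 kb of a gene end, and 4 of these ranked higher in replicate 2. The Hhip start had a percentile of 18.2 in replicate 1 and 62.5 in replicate 2, the right end of Ptch1 13.1 and 36.3, Smo 76.1 and 89.5, and the right end of Shh 1.75 and 11.3. Of these 4, only those of Hhip and Smo lay at a start of the promoter table. The remaining 2 lay at ends of transcription and ranked lower in replicate 2, with 94.6 and 90.8 for the Gas1 site and 46.8 and 15.0 for that of Gli3. Of the 57 sites farther from gene ends, 14 ranked higher in replicate 2.

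Over all shared sites, 87.6% of the 8799 sites within 1 kb of a protein-coding gene end ranked higher in replicate 2, against 35.7% of the 42214 others. Near a start of the promoter table the share was 85.7% of 8599 sites, and near only the opposite end of a gene it was 39.6% of 533 sites. The replicates also differed in list length, and the part of that difference in these ranks was not tested.

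**Figure D4:**
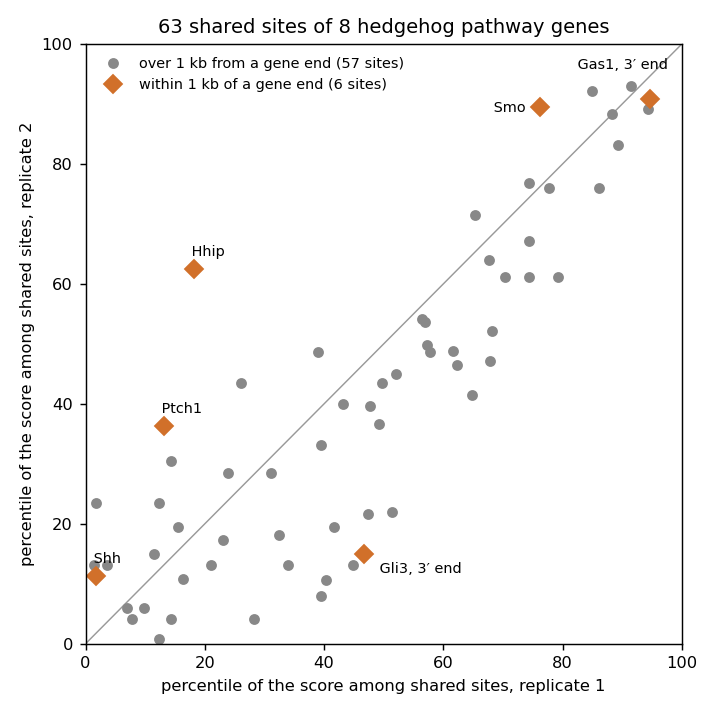
Percentile of each of the 63 hedgehog sites among all shared sites in replicate 1 (horizontal axis) and replicate 2 (vertical axis); diamonds lie within 1 kb of a gene end and the line marks equal percentiles. The diamonds of Hhip, Ptch1, Smo and Shh lie above the line, those at the 3′ ends of Gas1 and Gli3 below it, and most other sites lie below it.

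The distance allowed for pairing fell within the data of these genes. Just inside it, summits of Ptch1 at 63609875 lay 96 bp apart with scores of 22.9 and 7.62. Just outside, a Gli3 pair lay 110 bp apart with 23.0 and 4.11, and the Gas1 start pair 114 bp apart with 82.5 and 51.4. Of the 9 pairs 101 to 500 bp apart at these genes, 4 lay within 1 kb of a gene end, 1 each at Gas1, Boc, Gli2 and Gli3. The share of all such pairs that lie near a gene end was not counted. For the 100 kb limit, the farthest site inside it was that of Gas1 at 90.0 kb with 12.7 and 7.78, and the first outside it was that of Ptch1 at 105.2 kb with 30.1 and 7.78.

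The rest of the pathway was read from a list of 52 genes, chosen with earlier results of these data known. The counts therefore describe that list and no more. Of these, 46 had a shared site, against 60.7% of all protein-coding genes, with a median of 3 sites per gene, against a median of 1 and a mean of 2.19 over all protein-coding genes. Among genes for ligands, their release and co-receptors, 10 of 13 had a site (60.7% of all protein-coding genes) and the median was 2. Gpc5, a glypican gene of 1433 kb, had 12, Disp1, which exports hedgehog ligands from the cell, had 9, and Hhat, which attaches palmitate to them, had 8. The highest site of this group belonged to Disp1, with scores of 218.5 and 105.4. Ihh, Lrp2 and Scube3 had none.

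Among genes of transduction and the cilium, 22 of 23 had a site assigned (60.7% of all protein-coding genes), with a median of 2. Evc had none assigned, although a shared site lay within 5 kb of one of its ends. Sufu, the inhibitor that holds Gli factors in the cytoplasm, had 10, and the kinase genes Csnk1a1 and Csnk1e had 9 and 8. The highest site belonged to the arrestin gene Arrb1, with 211.1 and 97.7.

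Among 16 genes reported downstream of hedgehog in lung or other tissue, 14 had a site assigned (60.7% of all protein-coding genes), with a median of 6.5 sites, against 1. Bcl2, a survival gene, had 17, Foxf1 itself 12 and the cyclin gene Ccnd1 11. The highest site belonged to the forkhead gene Foxl1, a neighbour of Foxf1, with 215.2 and 106.0. Nkx3-2 had none assigned, and neither had Foxm1, although a shared site lay within 5 kb of an end of Foxm1. No test between these groups was run.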

How the data were processed

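FOXF1 ChIP-seq summits of 2 biological replicates, each a pool of 3 lungs, were analysed. Per the labels' protocols, lungs were fixed in 1% formaldehyde, chromatin was cut by micrococcal nuclease and then sheared by sonication, and 7 µg of antibody was used on 10 µg of it. The authors called peaks with MACS2 on mm10, per the submitters' processing notes, separately for each replicate against the input, per the peak names. Each deposited entry is 1 summit base with a −log10 significance score computed by the authors, and the sources used here do not say if p or q values underlie it. Aligner, options, duplicate handling and depth are not given either. Such scores depend on depth, so percentiles and ranks were taken within each replicate. The raw scores of both replicates were still averaged to name a highest site, and the same score minimum of 10 was applied to both lists. The input itself was not analysed here.

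Summits of the nuclear chromosomes, 1 to 19 with X and Y, were paired and assigned to genes as the report states, at their midpoint, with Python 3.11.15, numpy 2.4.6 and pandas 2.3.3. The pairing and assignment were tested on made-up summits with known partners. Genes came from a RefSeq table of GRCm38, the same assembly as mm10, without exons, so positions within a gene were not split into exons and introns. Strands and start windows came from a RefSeq promoter table, which had no entry for Shh, Gli1 or Boc. No genome sequence was used, so sequence at sites away from starts was not analysed here.

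Named were all 9 genes, in each group of the 52 further pathway genes the 3 with most sites and the highest site, and the 3 genes nearest to Ptch1. Genes listed at 0 and the sites and neighbours singled out were named after their values were seen. The members and lists were chosen with earlier results of these data known. Alternatives were the pairing distance, a score minimum of 10, the 10000 highest summits of each list, either replicate alone, the assignment distance and the genes that compete for a site.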

Additional observations from a re-analysis of the deposited data

How the results depend on the processing

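Most of the counted sites came from summits below the 10000 highest of a list. With only the 10000 highest summits of each list, the 9 genes had 6 sites instead of 63, 4 genes had a site, 1 had one within 5 kb of an end, and 19 of the 52 further pathway genes had one, where 16.7% of all protein-coding genes had an assigned site. With a score of at least 10 in both lists there were 41 sites and 8 genes with one (56.3% of all protein-coding genes). Using a single replicate gave 76 to 150 sites, 8 to 9 genes with a site, 8 to 9 with one within 5 kb of an end, and 46 to 50 of the further genes. The share of all protein-coding genes with a site was 65.3% with replicate 2 alone and 72.4% with replicate 1 alone. For sites within 5 kb of an end, that share was not counted with a single replicate or with the 10000 highest summits. The 150 came from replicate 1 alone, where Gli1 had 2. Pairing at 50, 200 or 500 bp gave 57, 70 and 72 sites, the last distance having been added after the data were seen. Shh went from 2 to 4 sites at 200 bp. Limits of 50 kb and none gave 55 and 80 sites, and Gas1 went from 4 to 2 and 8. Without a limit Hhip had 14 sites, and the mean score of its highest one was 154.1, against 53.9 as reported. With all RefSeq genes competing there were 46 sites, of which Boc had 7 instead of 13. With these or the 50 kb limit, the highest Ptch1 site had a mean score of 81.1 in place of 96.2. Of 90 values for single genes, 60 stayed within 1.5 times the reported count, 17 were lower and 13 higher. The 60 include the Gli1 values that stayed at 0, for which no ratio exists. No paired analysis was possible because the numbered replicates form a single group. The depth of both libraries is unknown, which limits what can be said of low sites.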

Other observations

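Several sites of the hedgehog genes lay within noncoding genes of the annotation. The share of all shared sites that do so was not counted. Of the upstream Ptch1 sites, 3 lay inside LOC102632415, a long noncoding RNA gene, at 63596017, 63597748 and 63609875, with replicate 1 scores of 19.9 to 39.4 and replicate 2 scores of 7.62 to 15.2. Beyond the right end of Boc, the site at 44617116 with 79.2 and 37.3 lay inside Gm30252, and those at 44630145 and 44632705 lay inside Gm46571. The upstream Gli2 site, at 119125048 with 33.1 and 7.78, lay inside Gm41934. The site at the right end of Shh also lay inside 9530036O11Rik, a long noncoding RNA gene that overlaps that end.

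Beyond 100 kb, 17 shared sites had an end of one of the 9 genes as their nearest protein-coding end. Apart from the 7 of Hhip, 4 were those of Gas1, 3 of Gli2, 2 of Gli3 and 1 of Ptch1. The highest of these lay 117 kb to the left of Gas1, its downstream side, at 60057859 on chromosome 13 with scores of 134.8 and 55.3. For Gli2 the highest was at 119209884, 155 kb upstream, with 59.1 and 24.7. Whether any of these sites acts on the gene whose end is nearest was not tested.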
